A study of Rattus norvegicus with 18 samples.

Results

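The genes of sterol and fatty acid synthesis were followed across RNA sequencing libraries of neonatal rat ventricular cardiomyocytes. The set is 33 named genes, found by symbol among the 19880 genes of the deposited table. It holds 18 genes of the sterol branch, 6 regulators and sterol carriers, and 9 genes of the fatty acid and desaturase branch. All 33 were found, and all 33 passed the filter on low counts, with 61.03 as the lowest estimated count of any member in any library (Elovl6).

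The cells were ventricular cardiomyocytes isolated from Sprague-Dawley rats on postnatal day 2, which are primary cells and not a line. All of them, controls included, had received phenylephrine (PE) at 20 µM for 24 h; PE activates alpha-1 adrenergic receptors and drives hypertrophic growth of these cells. The 6 groups of 3 libraries were PE-treated cells infected with ad-sORF6, with ad-sORF7 or with ad-sORF8, an adenovirus carrying a small open reading frame (sORF), and PE-treated cells infected with the control virus of each. The labels name neither the gene each sORF comes from nor the insert of the control viruses, so expression of the sORFs was not analysed here. Non-cardiomyocytes had been reduced by a plating step, and the medium contained fetal bovine serum, a source of cholesterol and fatty acids. The labels do not state if replicates are separate cultures or animals, so p-values rest on a between-library spread that may be only technical.

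Cells make cholesterol from acetyl-CoA through the mevalonate pathway, squalene and lanosterol. The transcription factor SREBP-2, encoded by Srebf2, drives most genes of this route, and SREBP-1, encoded by Srebf1, drives mainly fatty acid synthesis and desaturation. When membrane sterol falls, SCAP escorts SREBP to the Golgi, where it is cut and released; when sterol is ample, INSIG proteins hold SCAP in the endoplasmic reticulum. SREBP acts on promoters together with the general factors NF-Y and Sp1. Cardiac muscle makes little fatty acid for export and burns fatty acids taken up from blood, and desaturases set the saturation of its membrane lipids.

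Promoter sequence was available for 26 of the 33 members, as 250 bases before to 50 bases after the gene start (RefSeq, GRCr8). The letters TCACNCCAC, a form of the sterol regulatory element bound by SREBP, were in the windows of 0 of the 26 members on either strand. They were in 1.12% of 33469 RefSeq promoters of that length. At that share 26 windows would hold few matches or none, so the 0 is near the background, and other forms of the element were not searched. The letters CCAAT, the core bound by NF-Y, were on either strand of 20 of 26 windows (76.9%), against 37.5% of all promoters and 37% of the 13073 promoters of genes tested here. GGGCGG, a core bound by Sp1, was also in 20 of 26 windows, against 33.1% of all promoters and 58.5% of those of genes tested. Windows with CCAAT included 12 of 15 in the sterol branch, 4 of 5 among the regulators and 4 of 6 in the fatty acid branch. None of the motifs contains another, and a match of letters is a description, not a site.

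The stretches that carry these CCAAT boxes are shown for the 9 members that the results turn on and whose window holds one. They, and the background of genes tested, were chosen after the count for TCACNCCAC was seen. Each is written 5′ to 3′ on the gene's own strand, with capitals marking CCAAT, or ATTGG where the box lies on the opposite strand. Scd2 is at chr1:253118265-253118342, + strand; Fdps at chr2:176804882-176804961, - strand; Hmgcs1 at chr2:53382101-53382190, + strand. Hsd17b7 is at chr13:84722760-84722945, - strand; Idi1 at chr17:66547540-66547605, - strand; Fads1 at chr1:216252543-216252603, + strand. Sc5d is at chr8:51538332-51538392, - strand; Insig1 at chr4:8057930-8057990, - strand; Srebf2 at chr7:115543150-115543210, + strand. All these positions are of build GRCr8, while gene positions given further on are those of the deposited table, whose build is Rnor_6.0.
Scd2: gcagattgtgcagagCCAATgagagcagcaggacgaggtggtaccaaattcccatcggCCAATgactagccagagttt
Fdps: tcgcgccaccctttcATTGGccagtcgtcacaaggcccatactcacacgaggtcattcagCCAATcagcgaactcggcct
Hmgcs1: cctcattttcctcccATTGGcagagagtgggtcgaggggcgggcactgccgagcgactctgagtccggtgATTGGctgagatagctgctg
Hsd17b7: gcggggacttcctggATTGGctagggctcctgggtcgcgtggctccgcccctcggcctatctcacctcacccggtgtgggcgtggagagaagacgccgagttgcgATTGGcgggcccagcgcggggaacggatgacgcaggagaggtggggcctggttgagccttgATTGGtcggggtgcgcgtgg
Idi1: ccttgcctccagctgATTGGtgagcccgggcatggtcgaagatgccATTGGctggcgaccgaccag
Fads1: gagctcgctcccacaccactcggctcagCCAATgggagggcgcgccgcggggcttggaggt
Sc5d: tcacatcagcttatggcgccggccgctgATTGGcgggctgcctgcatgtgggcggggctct
Insig1: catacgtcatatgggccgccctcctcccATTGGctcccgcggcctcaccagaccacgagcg
Srebf2: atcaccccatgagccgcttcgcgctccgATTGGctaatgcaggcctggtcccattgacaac
Of the 9 stretches, Hsd17b7 holds 3 boxes, Scd2, Fdps, Hmgcs1 and Idi1 hold 2 each, and the other four hold a single box. The windows of Acat2, Cyp51 and Scd, also among the members given by library further on, held 0 CCAAT boxes. That of Scd held none of the motifs searched. At least 2 boxes were found in 10 of the 15 sterol branch windows, in 0 of the 5 regulator windows and in 2 of the 6 fatty acid branch windows.

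Library totals ran from 15697177 to 17658137 estimated counts, and the 6 libraries of the sORF8 experiment were the 6 shallowest. No library was a copy of another. The second library of the sORF6 control virus and the first of the sORF7 control virus stood apart from the others of their groups, with a chi-square per gene of 15.0 or more and of 7.99 or more against them, where all other pairs lay between 2.72 and 4.69. Without both libraries, 20 members were called lower with sORF7. The defining cardiomyocyte markers Actc1, Actn2, Tnnt2, Tnni3, Myl2, Ryr2, Pln and Myh6 summed to 16729 to 28022 FPKM (a level per transcript length and library depth) over the 18 libraries. Fibroblast markers summed to 1495 to 1782 FPKM, smooth muscle markers to 248 to 293, leukocyte markers to 14.8 to 19.2 and endothelial markers to 9.50 to 12.5. Adipocyte markers, of a cell type rich in the same synthesis genes, summed to at most 0.70 FPKM, with Adipoq, Plin1, Lep and Cidec at 0 in 13 to 16 libraries. In these bulk libraries, fewer cells of a type and less RNA per cell cannot be told apart.

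Per transcript length, Fdps of the sterol branch was the most abundant member in the control libraries, and Scd2 of the fatty acid branch came second. Over the 9 control libraries, Fdps stood at 469 ± 116 FPKM (SD, n = 9), Scd2 at 187 ± 35.1 FPKM and Hmgcs1 at 179 ± 29.3 FPKM. Cyp51 at 177 ± 23.2 FPKM and Msmo1 at 129 ± 8.93 FPKM came next, and the lowest members were Hsd17b7 at 9.12 ± 1.84, Tm7sf2 at 8.10 ± 2.08 and Elovl6 at 2.69 ± 1.32 FPKM. These SDs span 3 control groups of different level, and the order turned with the group. Scd2 held 209 to 218 FPKM in the sORF6 controls, above Cyp51 at 189 to 199, and 139 to 144 in the sORF8 controls, below Cyp51 at 146 to 148. Scd, the paralog of Scd2, stood at 16.9 ± 4.66 FPKM.

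**Figure D1:**
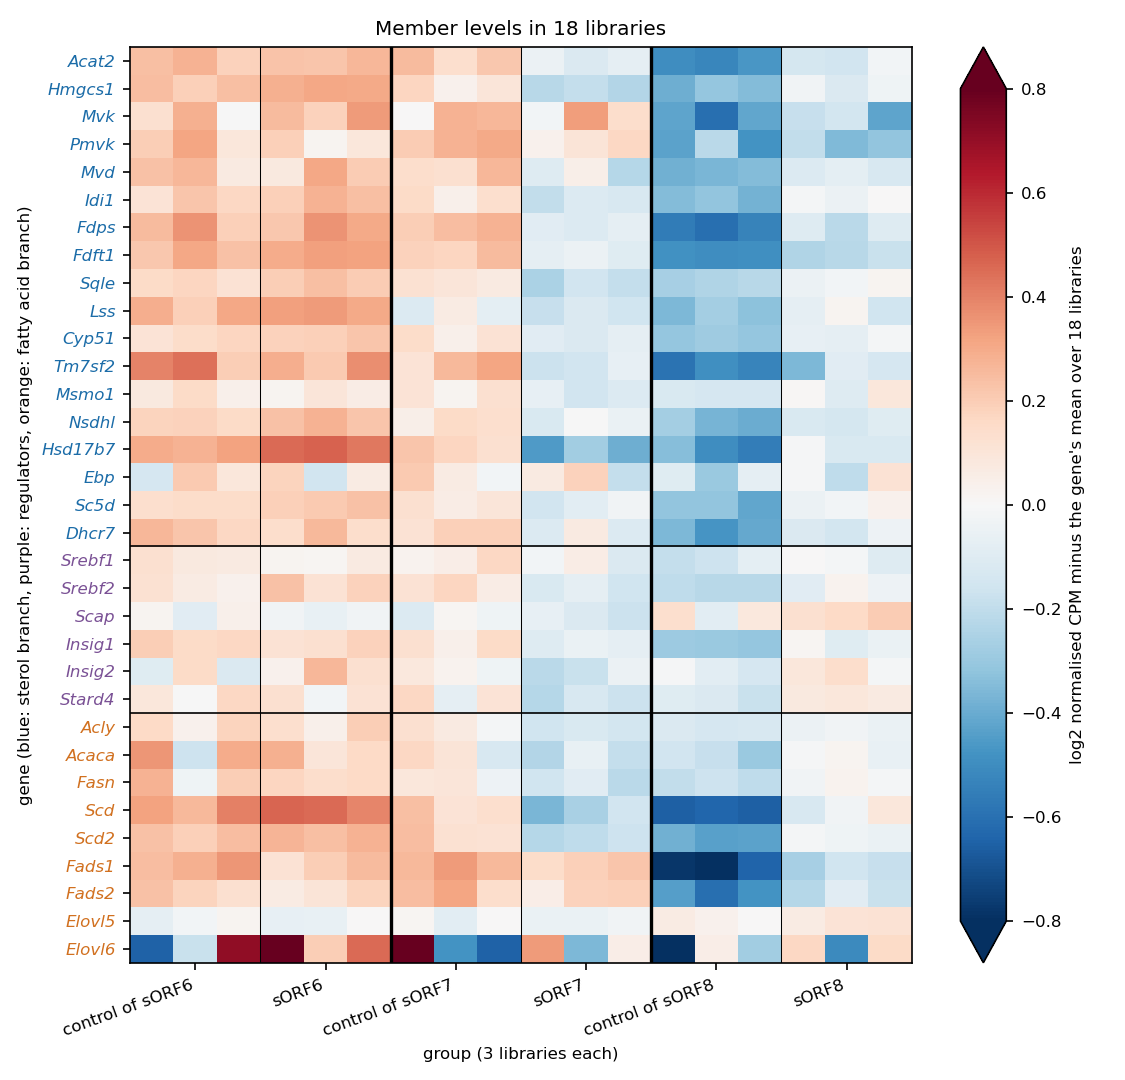
Level of each of the 33 members (rows) in each of the 18 libraries (columns), as log2 normalised CPM minus the mean of that gene over all libraries; colours are clipped at 0.8 either way. Most sterol rows are red in both sORF6 groups and the sORF7 control virus, pale blue with sORF7 and sORF8, and darkest blue in the sORF8 control virus.

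To ask which genes respond to a sORF in PE-treated cells, the libraries of each sORF were set against those of its control virus. Values are normalised CPM (CPM, counts relative to each library total after TMM scaling), given in replicate order 1, 2, 3, and each log2 fold change is followed by ± and its standard error. Calls are at an edgeR adjusted p under 0.05 over the 14870 genes tested.

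With sORF7, 21 of the 33 members fell and 0 rose, where 3.66% of all genes tested fell. Of the 21, 14 were among the 18 sterol genes, 3 among the 6 regulators and 4 among the 9 fatty acid genes. The fold change was below 0 for all 33, with a median of -0.20 against -0.0024 for all genes tested. At an unadjusted p under 0.05, edgeR put 24 members lower and 0 higher, where 1490 of all 14870 genes tested were lower. DESeq2 called 21 members lower and 0 higher. In limma on log2(FPKM + 1), 14 were called lower, and the calls of Mvd, Msmo1, Nsdhl, Sc5d, Dhcr7, Stard4 and Fasn were lost. In 25 of 33 members every sORF7 library lay below every control library, as did 11.3% of all genes tested. The members were 16 of 18 sterol genes, 4 of 6 regulators and 5 of 9 fatty acid genes.

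With sORF8 the members moved the other way: 18 of 33 rose and 0 fell, where 2.03% of all genes tested rose. Of the 18, 12 were sterol genes, 2 were regulators and 4 were fatty acid genes. All 33 fold changes were above 0, with a median of 0.25 against 0.00053 for all genes tested. At an unadjusted p under 0.05, edgeR put 25 members higher and 0 lower, where 1229 of all 14870 genes tested were higher. DESeq2 called 20 members higher and 0 lower. Every sORF8 library lay above every control library in 25 members, as did 11.6% of all genes tested, and these were 15 sterol genes, 3 regulators and 7 fatty acid genes.

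With sORF6, 0 of 33 members passed in edgeR, where 3.85% of all genes tested passed in either direction. DESeq2 and limma on log2(FPKM + 1) also called 0. At an unadjusted p under 0.05, edgeR put 3 members apart, with Hsd17b7 and Srebf2 higher and Fads1 lower. Of all 14870 genes tested, 978 were higher and 1286 lower at that p, so 3 of 33 is near the background. Every sORF6 library lay above every control library in 6 members, all of them sterol genes, and below in 1, Srebf1, against 10% and 10.6% of all genes tested. Of the fold changes, 20 were above 0 and 13 below. Their medians were 0.06 for the sterol branch, -0.018 for the regulators and 0.0024 for the fatty acid branch. Over all 14870 genes tested, 7477 were above 0 and 7388 below, with a median of 0.00084.

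**Figure D2:**
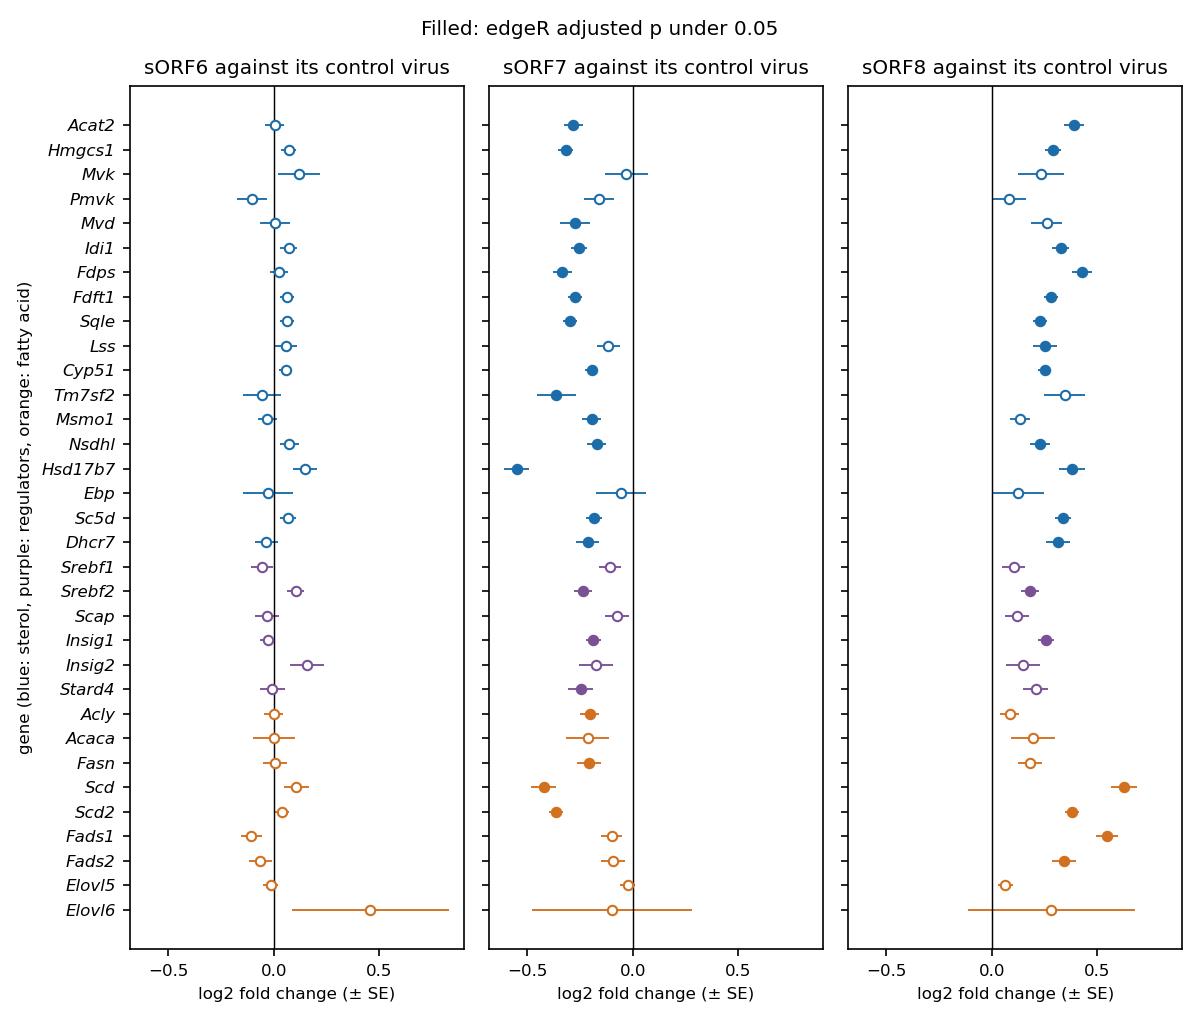
Log2 fold change of each member against its own control virus (points) with its standard error (lines), in panels for sORF6, sORF7 and sORF8; filled points have an edgeR adjusted p under 0.05. All sORF7 points lie left of 0 with 21 filled, all sORF8 points lie right of 0 with 18 filled, and no sORF6 point is filled.

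The mevalonate steps opened with Acat2, the cytosolic thiolase that joins acetyl-CoA units (gene ID 308100, chr1:47972253-48025913, + strand). It stood at 78.6, 72.2 and 76.7 normalised CPM with the sORF7 control virus and at 63.9, 60.7 and 62.6 with sORF7, a log2 fold change of -0.28 ± 0.05 (adjusted p = 0.000679). In the sORF8 experiment the control libraries held 46.7, 45.8 and 47.8 and the sORF8 libraries 59.8, 59.3 and 64.9 normalised CPM, a log2 fold change of 0.39 ± 0.05 (adjusted p = 8e-05). Neither pair of groups overlapped. With sORF6 the libraries held 77.1, 77.0 and 79.3 against 77.8, 80.0 and 74.8 in their control, and the groups overlapped (0.00 ± 0.05, adjusted p = 0.978). Hmgcs1, the synthase that makes HMG-CoA, is at gene ID 29637, chr2:52427351-52445082, + strand. Its control libraries in the sORF7 experiment held 660.4, 601 and 626 normalised CPM and its sORF7 libraries 503, 513 and 498, a fall of all 3 below the lowest control (-0.32 ± 0.04, adjusted p = 2.15e-05). The sORF8 libraries, at 576, 541 and 573, lay above their controls at 447, 473 and 461 (0.29 ± 0.04, adjusted p = 8.78e-05). The sORF6 libraries held 714, 727 and 723 and their controls 696, 671 and 693, which do not overlap, but the difference did not pass (0.07 ± 0.04, adjusted p = 0.359).

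Downstream, Idi1 interconverts the isoprenoid units isopentenyl and dimethylallyl diphosphate (gene ID 89784, chr17:57976266-57984036, - strand). Its level was 269.8, 249 and 266 normalised CPM in the sORF7 controls and 211, 225 and 222 with sORF7 (-0.25 ± 0.04, adjusted p = 0.000366). In the sORF8 controls it was 191, 194 and 186, and with sORF8 239.5, 234 and 243 (0.33 ± 0.04, adjusted p = 7.04e-05). Idi1 thus fell and rose without overlap in these experiments, whereas its sORF6 groups overlapped. Those libraries held 277, 293 and 287 with sORF6 and 261, 283 and 272 with its control virus (0.07 ± 0.04, adjusted p = 0.415). Fdps, the farnesyl diphosphate synthase that also supplies protein prenylation and ubiquinone, is at gene ID 83791, chr2:188403595-188413219, - strand. It stood at 664, 687 and 704 normalised CPM in the sORF7 controls and at 544, 537 and 551 with sORF7 (-0.33 ± 0.04, adjusted p = 0.000102). Against sORF8 controls at 394, 382 and 400.0, the sORF8 libraries held 541, 499 and 541 (0.43 ± 0.05, adjusted p = 1.59e-05), the largest rise of a sterol gene with sORF8. No sORF7 or sORF8 library of Fdps reached the range of its controls. With sORF6 it held 673, 743 and 717 and with its control 689.9, 743 and 662, and the groups overlapped (0.03 ± 0.04, adjusted p = 0.848).

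The other mevalonate genes were less clear. Mvd, which decarboxylates mevalonate diphosphate, fell with sORF7 by 0.27 ± 0.07 on the log2 scale (adjusted p = 0.0247) and held 0.26 ± 0.08 with sORF8 (adjusted p = 0.0651). Its sORF7 call was lost without the third control library, the first sORF7 library or the third sORF7 library, at adjusted p of 0.0837 to 0.127. The kinases Mvk and Pmvk passed in neither comparison. Mvk ranged from 14.3 to 27.6 normalised CPM over the 18 libraries and had log2 fold changes of -0.03 ± 0.10 with sORF7 and 0.23 ± 0.11 with sORF8. Pmvk ranged from 20.4 to 35.3 normalised CPM, with -0.16 ± 0.07 and 0.08 ± 0.08.

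Squalene is made by Fdft1, the first enzyme committed to sterols (gene ID 29580, chr15:46339248-46367302, - strand). It held 243, 242 and 255 normalised CPM in the sORF7 controls and 204, 207 and 200.5 with sORF7 (-0.27 ± 0.03, adjusted p = 4.42e-05). The sORF8 controls held 153, 151 and 152 and the sORF8 libraries 181, 184 and 189 (0.28 ± 0.03, adjusted p = 6.34e-05). Replicates of Fdft1 were close together, and neither pair of groups overlapped. The sORF6 libraries, at 264, 269 and 268, overlapped their controls at 249, 266 and 252 (0.06 ± 0.03, adjusted p = 0.382). Sqle, the monooxygenase that turns squalene into its epoxide and a control point of the route, is at gene ID 29230, chr7:99609165-99624803, + strand. Control libraries of the sORF7 experiment held 184, 181 and 178 normalised CPM against 142, 152 and 148 with sORF7 (-0.29 ± 0.03, adjusted p = 2.15e-05). With sORF8, Sqle went from 141, 143 and 145 in the controls to 164, 167 and 172 (0.23 ± 0.03, adjusted p = 0.000463). Both shifts left a gap between the groups. The sORF6 libraries held 194, 199.7 and 195 and their controls 189, 191 and 184, also apart, but without a call (0.06 ± 0.03, adjusted p = 0.37).

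Lss, which cyclises the epoxide to lanosterol, rose with sORF8 by 0.25 ± 0.06 on the log2 scale (adjusted p = 0.0142) and had -0.12 ± 0.06 with sORF7 (adjusted p = 0.252). The sORF8 call of Lss was lost without the first or the third control library or the second sORF8 library, at adjusted p of 0.061 to 0.096. Cyp51 removes a methyl group from lanosterol and opens the late sterol steps (gene ID 25427, chr4:27175148-27194018, + strand). Its libraries held 597, 556 and 585 normalised CPM with the sORF7 control virus and 506, 498 and 514 with sORF7 (-0.19 ± 0.03, adjusted p = 0.000492). For sORF8 the values were 435, 443 and 436 in the controls and 516, 514 and 533 with the sORF (0.25 ± 0.03, adjusted p = 8.78e-05). The fold was small in both, but every library fell on its group's side. For sORF6 they were 583, 597 and 608 in the controls and 613, 616 and 631 (0.06 ± 0.03, adjusted p = 0.408).

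Among the late steps, Hsd17b7, a sterol keto-reductase, had the largest fall of any member (gene ID 29540, chr13:88288116-88308019, - strand). It held 37.9, 36.6 and 35.4 normalised CPM in the sORF7 controls and 23.7, 26.7 and 24.8 with sORF7 (-0.55 ± 0.06, adjusted p = 1.45e-05). In the sORF8 experiment it went from 25.6, 23.0 and 22.1 to 32.3, 29.8 and 29.8 (0.38 ± 0.06, adjusted p = 0.00119). The sORF7 libraries thus lay near the level of the sORF8 controls, and sORF8 libraries lay between them and the sORF7 controls. With sORF6, Hsd17b7 held 44.4, 45.0 and 43.4 against 39.9, 39.4 and 40.5, every library above the controls, without a call (0.15 ± 0.06, adjusted p = 0.193). In limma the rise with sORF8 did not pass, at 0.25 (adjusted p = 0.0517) on log2(FPKM + 1) and 0.28 (adjusted p = 0.0582) on log2(FPKM + 0.1). Sc5d, the lathosterol desaturase, is at gene ID 114100, chr8:46525406-46537014, - strand. Its libraries held 179, 171 and 175 normalised CPM in the sORF7 controls and 148, 154 and 161 with sORF7 (-0.18 ± 0.04, adjusted p = 0.00525). In limma on log2(FPKM + 1) the fall of Sc5d was -0.12 (adjusted p = 0.177), and in edgeR on the 6 libraries of that experiment alone -0.18 (adjusted p = 0.0544). The sORF8 values were 132, 132 and 123 in the controls and 159, 161 and 168 with the sORF (0.34 ± 0.04, adjusted p = 3.45e-05), with no overlap. The sORF6 values were 180.1, 181 and 181 in the controls and 187, 189 and 193 with the sORF (0.07 ± 0.04, adjusted p = 0.409).

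Dhcr7, which reduces the last double bond on the way to cholesterol, fell with sORF7 by 0.21 ± 0.05 (adjusted p = 0.0202) and rose with sORF8 by 0.31 ± 0.06 (adjusted p = 0.00287) on the log2 scale. Nsdhl, a sterol dehydrogenase, had -0.17 ± 0.04 (adjusted p = 0.0232) and 0.23 ± 0.05 (adjusted p = 0.0071). Their sORF7 calls were the weaker ones: either was lost without the second or the third control library or the first or the third sORF7 library, at adjusted p of 0.0607 to 0.102 for Dhcr7 and 0.0599 to 0.12 for Nsdhl. Tm7sf2, a sterol reductase, fell with sORF7 by 0.36 ± 0.09 (adjusted p = 0.0195), and its value with sORF8 was 0.35 ± 0.10 (adjusted p = 0.0556). Leaving out the second or the third control library, or the first or second sORF7 library, ended the call of Tm7sf2 (adjusted p of 0.0618 to 0.077). Msmo1, a methylsterol oxidase, fell by 0.19 ± 0.05 with sORF7 (adjusted p = 0.0116) and had 0.13 ± 0.05 with sORF8 (adjusted p = 0.125). Its call needed the first control and the second sORF7 library (adjusted p of 0.0511 to 0.0605 without either). Ebp, a sterol isomerase at 10.8 to 15.4 normalised CPM, passed in neither, with -0.06 ± 0.12 and 0.12 ± 0.12.

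Of the regulators, Srebf2, which encodes SREBP-2, is at gene ID 300095, chr7:123381082-123438605, + strand. It held 210.5, 219 and 202 normalised CPM in the sORF7 controls and 179, 185 and 174 with sORF7 (-0.23 ± 0.04, adjusted p = 0.00145). The sORF8 experiment gave 169, 167 and 167 in the controls and 183, 199 and 189 with sORF8 (0.18 ± 0.04, adjusted p = 0.0205). Every sORF8 library lay above every control, but the rise was close to the threshold. Leaving out any of the 3 controls, or the second or the third sORF8 library, ended the call at adjusted p of 0.0551 to 0.13, while the log2 fold change stayed between 0.15 and 0.21 without single libraries. The sORF6 libraries held 229, 210.3 and 221 against 212, 204 and 199 (0.10 ± 0.04, adjusted p = 0.228), and these groups overlapped. Insig1, the sterol-sensing retention protein and itself an SREBP target, is at gene ID 64194, chr4:328169-350515, + strand. Its libraries held 229, 216 and 233 normalised CPM in the sORF7 controls and 195, 202 and 199 with sORF7 (-0.19 ± 0.04, adjusted p = 0.00314). In the sORF8 experiment the values were 171, 171 and 169 and 212, 196 and 202 (0.26 ± 0.04, adjusted p = 0.000389). Insig1 followed the enzymes in both directions and without overlap. The sORF6 libraries, at 227, 229 and 238, overlapped their controls at 240.0, 233 and 235 (-0.03 ± 0.04, adjusted p = 0.777).

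Stard4, a carrier that moves cholesterol between membranes, fell with sORF7 by 0.25 ± 0.06 (adjusted p = 0.0144) and had 0.21 ± 0.06 with sORF8 (adjusted p = 0.0635). Its fall was lost without the first or the third control library or the first sORF7 library, at adjusted p of 0.0535 to 0.0932. The genes of SREBP-1, SCAP and the other INSIG did not pass. Srebf1 had -0.11 ± 0.05 with sORF7 and 0.10 ± 0.05 with sORF8, Scap -0.08 ± 0.06 and 0.12 ± 0.06, and Insig2 -0.17 ± 0.08 and 0.15 ± 0.08. Their lowest adjusted p over the 3 comparisons was that of Insig2 with sORF7 (adjusted p = 0.231).

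In the fatty acid branch, the stearoyl-CoA desaturases, which make monounsaturated fatty acids, passed in both experiments. Scd2 is at gene ID 83792, chr1:264059374-264072433, + strand, and Scd lies nearby at gene ID 246074, chr1:264159966-264173061, - strand. Scd2 held 1118, 1027 and 1024 normalised CPM in the sORF7 controls and 807, 821 and 839 with sORF7 (-0.36 ± 0.03, adjusted p = 4.57e-06). From 721, 698 and 702 in the sORF8 controls it went to 935, 919.8 and 908 with sORF8 (0.38 ± 0.03, adjusted p = 1.7e-06). Every library of Scd2 lay on its group's side in both experiments. The sORF6 libraries held 1138, 1115 and 1144 against 1109.7, 1077 and 1118 (0.04 ± 0.03, adjusted p = 0.63), with overlap. Scd, present at a lower level, held 94.4, 86.1 and 87.8 normalised CPM in the sORF7 controls and 62.0, 66.7 and 71.7 with sORF7 (-0.42 ± 0.06, adjusted p = 0.00018). Its sORF8 libraries, at 73.1, 78.3 and 85.1, stood over controls at 50.8, 51.4 and 50.9 (0.63 ± 0.06, adjusted p = 6.12e-06), the largest rise of any member. With sORF6 it held 110.1, 109 and 105 against 99.9, 95.5 and 106 (0.11 ± 0.06, adjusted p = 0.407), which overlap. The counts of both genes were fractional in all 18 libraries, since the deposited estimates divide reads among similar transcripts. The split between Scd and Scd2 is thus uncertain. Other members given by library also had fractional counts, in 18 libraries for Acat2 and Sc5d, 16 for Idi1, 11 for Hsd17b7 and 5 for Fdft1.

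The desaturases of polyunsaturated fatty acids changed in the sORF8 experiment. Fads1 is at gene ID 84575, chr1:226234034-226249118, + strand. It went from 68.7, 66.0 and 75.4 normalised CPM in the sORF8 controls to 98.0, 105 and 104 with sORF8 (0.55 ± 0.05, adjusted p = 4.04e-06). The sORF7 libraries, at 130.3, 135 and 137, lay below their controls at 141, 149 and 141, but the difference did not pass (-0.10 ± 0.05, adjusted p = 0.266). With sORF6 the values were 128, 135 and 140.4 against 139.9, 144 and 150.3, and the groups overlapped (-0.11 ± 0.05, adjusted p = 0.311). Fads1 thus passed with sORF8 alone, and its response differed between sORF7 and sORF8 by -0.65 ± 0.07 (adjusted p = 1.27e-05). Its neighbour Fads2 likewise rose with sORF8 by 0.34 ± 0.06 (adjusted p = 0.00185) and had -0.09 ± 0.06 with sORF7 (adjusted p = 0.374).

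De novo synthesis genes passed with sORF7 alone or with neither sORF. Acly, which makes cytosolic acetyl-CoA from citrate, fell with sORF7 by 0.20 ± 0.04 (adjusted p = 0.00737) and had 0.08 ± 0.04 with sORF8 (adjusted p = 0.364). Fasn, the fatty acid synthase, fell with sORF7 by 0.21 ± 0.06 (adjusted p = 0.0325) and had 0.18 ± 0.06 with sORF8 (adjusted p = 0.0933). The call of Fasn was lost without the first or second control library or the first or the third sORF7 library, at adjusted p of 0.0967 to 0.135. That of Acly was lost without the first control library, at -0.16 (adjusted p = 0.0529). Acaca, the acetyl-CoA carboxylase, passed in neither, with -0.21 ± 0.10 and 0.20 ± 0.10. The elongases were not called: Elovl5 had -0.02 ± 0.04 and 0.06 ± 0.04, and Elovl6 -0.10 ± 0.38 and 0.28 ± 0.39. Elovl6 varied widely between libraries of a group, from 3.80 to 13.3 normalised CPM over all 18, so a change of the size seen in its neighbours was not detectable for it.

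The level of each branch was averaged by library, with no test. The mean deviation of the 18 sterol genes from their own means, on the log2 scale, ran from 0.13 to 0.16 in the sORF7 control libraries and from -0.12 to -0.05 with sORF7. In the sORF8 experiment it ran from -0.38 to -0.36 in the controls and from -0.12 to -0.08 with sORF8. The fatty acid branch ran from -0.02 to 0.26 in the sORF7 controls and from -0.09 to -0.05 with sORF7, and from -0.39 to -0.32 to between -0.08 and -0.02 with sORF8. The groups did not overlap, but for the fatty acid branch with sORF7 the gap was narrow, from -0.018 in the lowest control to -0.050 in the highest sORF7 library, and the controls had an SD of 0.14. In the sORF7 controls Elovl6, a member of this branch, held 13.3, 4.90 and 4.35 normalised CPM. Branch medians of the log2 fold change were -0.23 for sterol and -0.20 for fatty acid genes with sORF7, and 0.27 and 0.28 with sORF8, beside the medians of all genes tested given with each comparison. Whether the branches differ was not tested.

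**Figure D3:**
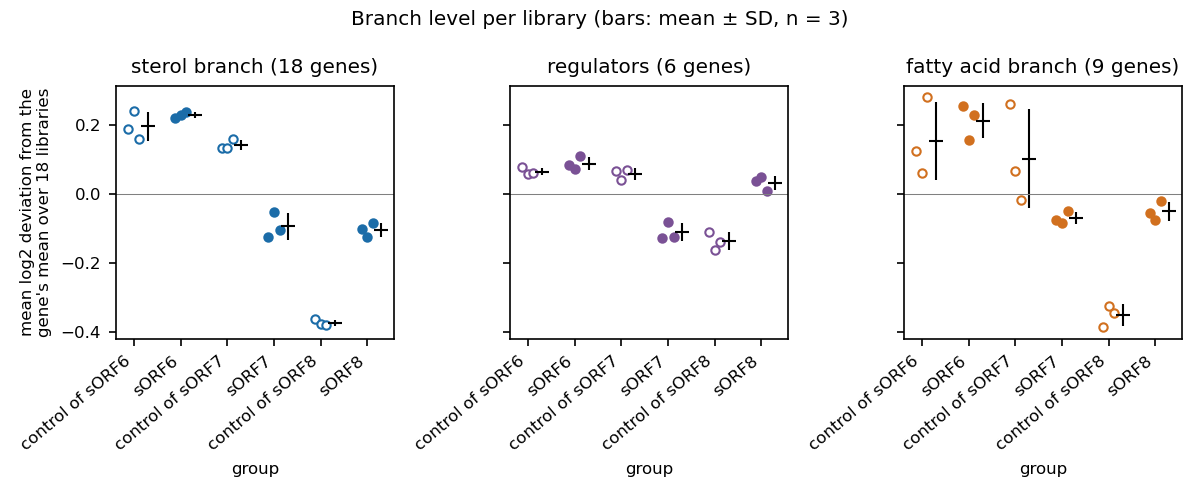
Mean log2 deviation of the sterol branch, the regulators and the fatty acid branch in each library (points; open for control viruses, filled for sORFs), with group means and SDs of 3 libraries (bars). The sterol branch averages 0.14 in the sORF7 control and -0.09 with sORF7, and -0.37 in the sORF8 control and -0.10 with sORF8.

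The responses were then compared between experiments by testing differences of differences. Between sORF7 and sORF8, 24 of 33 members differed, all lower with sORF7, where 3.92% of genes tested were lower. They were 15 of 18 sterol genes, 3 of 6 regulators and 6 of 9 fatty acid genes. The largest differences on the log2 scale were -1.05 ± 0.09 for Scd (adjusted p = 4.91e-07), -0.93 ± 0.09 for Hsd17b7 (adjusted p = 1.38e-06) and -0.76 ± 0.06 for Fdps (adjusted p = 5.18e-07). Between sORF6 and sORF7, 14 members differed, all higher with sORF6, where 4.88% of genes tested were higher, and Hsd17b7 led with 0.70 ± 0.08. Between sORF6 and sORF8, 13 members were lower with sORF6, where 2.82% of genes tested were lower, and Fads1 led with -0.65 ± 0.07. Each of these differences shares its libraries with the comparisons it is made from, so it adds no separate evidence of direction.

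By gene, 15 members both fell with sORF7 and rose with sORF8, against 76 of the 14870 genes tested. These were 11 sterol genes, 2 regulators and 2 fatty acid genes. Another 6 passed with sORF7 alone (Mvd, Tm7sf2, Msmo1, Stard4, Acly and Fasn), 3 with sORF8 alone (Lss, Fads1 and Fads2) and 9 with neither. The difference between sORF7 and sORF8 passed for each of the 24 members called in either experiment and for none of the other nine. Across the 33 members, the fold changes with sORF7 and with sORF8, which share no library, had a Pearson r of -0.52 and a Spearman rho of -0.54. Over all 14870 genes these were 0.03 and -0.11. Genes are not independent replicates, and these values are a description.

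**Figure D4:**
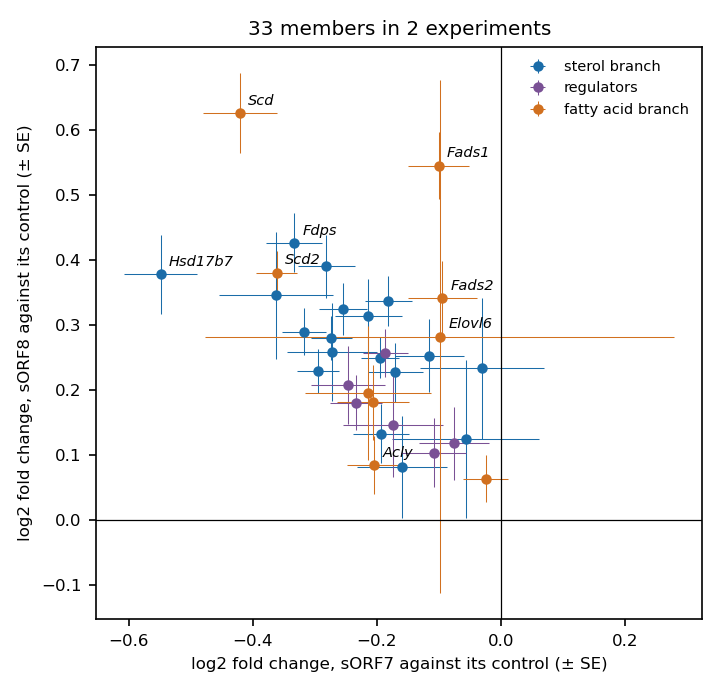
Log2 fold change with sORF8 (vertical axis) against that with sORF7 (horizontal axis) for the 33 members, each with its standard error, coloured by branch. All points lie left of 0 and above 0; Scd and Hsd17b7 lie farthest from 0, Fads1 and Fads2 are high for sORF8 with little change for sORF7, and the wide bars belong to Elovl6.

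The control viruses themselves differed in these genes. In a joint F test of the 3 control groups, 28 of 33 members passed, where 38.4% of all genes tested passed. In 27 of 33 members every sORF8 control library lay below every library of the other control groups, as in 18.3% of genes tested; these were 17 sterol genes, 4 regulators and 6 fatty acid genes. The median log2 ratio of the sORF8 control to the sORF6 control was -0.58 in the sterol branch, -0.39 in the fatty acid branch and -0.23 among regulators, against -0.0080 over all genes tested. To the sORF7 control the median over the 33 members was -0.45, while the sORF7 and sORF6 controls differed by a median of -0.04. Against the sORF6 control, Fads1 was lowest, at -1.05 (adjusted p = 1.66e-11 in the joint test), followed by Scd at -0.97 (adjusted p = 1.02e-09) and Tm7sf2 at -0.88 (adjusted p = 9.35e-07). Even with sORF8, 30 of 33 members stood below the mean of the sORF6 control, as did 50.3% of all genes tested, with a median of -0.21 against -0.0024 for all genes tested. Experiment and control virus cannot be told apart, and the rise with sORF8 is measured from this low control.

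Some markers of cardiomyocytes also changed. With sORF8 all 8 markers lay above every control library, as did 11.6% of all genes tested. Of the 8, 4 rose, where 2.03% of all genes tested rose. They were Actc1, Actn2, Myl2 and Myh6, the last by 0.80 ± 0.07 on the log2 scale (adjusted p = 2.19e-06). The summed level of the 8 markers was 16729 to 16970 FPKM in the sORF8 controls, 19374 to 19447 with sORF8 and 23379 to 28022 in the other four groups. With sORF7, every library lay below every control library in 4 of the 8 markers, as did 11.3% of all genes tested. The fold change was below 0 in 7 of the 8, as in 7545 of the 14870 genes tested. DESeq2 called 4 of the 8 lower. In edgeR, 2 of 8 fell, where 3.66% of all genes tested fell. Actn2 fell by 0.22 ± 0.03 (adjusted p = 9.74e-05) and Myl2 by 0.36 ± 0.06 (adjusted p = 0.000822). The 8 markers summed to 24591 to 26814 FPKM in the controls and 23379 to 23881 with sORF7. Myh6 went the other way with sORF7, every library above the controls, without a call (0.20 ± 0.07, adjusted p = 0.0972). With sORF6, 1 of the 8 markers was called, Myh6, lower at a log2 fold change of -0.32. Of all genes tested, 3.85% passed with sORF6 in either direction. Fibroblast markers Col3a1, Pdgfra and Postn also fell with sORF7, and the 8 of that list summed to 1543 to 1697 FPKM in the controls and 1495 to 1574 with sORF7. With sORF8 the fibroblast sums were 1543 to 1577 in the controls and 1544 to 1618. The part of these shifts in the member changes was not tested. A list of 10 interferon-stimulated genes was chosen with its behaviour in these libraries known. Of the 10, 10 rose with sORF7 (median log2 fold change 1.48), where 612 of all 14870 genes tested rose. With sORF6, 10 fell (median -2.90), where 428 of all genes tested fell. With sORF8, 0 of the 10 passed in edgeR, DESeq2 or limma, and 0 had an unadjusted edgeR p under 0.05. Their part in the member changes was not tested either.

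The wider pathway was followed in 67 other genes of lipid metabolism, in 5 lists. Of these, 1 passed with sORF6, 8 with sORF7 and 9 with sORF8, where 3.85%, 7.77% and 3.75% of all genes tested passed in either direction. Apoe, the lipoprotein component, rose with sORF6 by 0.39 ± 0.05 (adjusted p = 5.43e-05) and fell with sORF7 by 0.19 ± 0.05 (adjusted p = 0.032). The rises with sORF7 were Ch25h, which makes an oxysterol and is induced by interferon (1.00 ± 0.20, adjusted p = 0.00386), Cyp27a1, another sterol hydroxylase (0.39 ± 0.09), and Dgat2, which makes triglyceride (0.60 ± 0.11). Cyb5r3, Hacd2, Acsl3 and Aacs fell by 0.19 to 0.30. Aacs, the acetoacetyl-CoA synthetase that feeds sterol synthesis, fell with sORF7 by 0.30 ± 0.05 (adjusted p = 0.000773) and rose with sORF8 by 0.23 ± 0.05 (adjusted p = 0.014). The other rises with sORF8 included Acss2, the cytosolic acetyl-CoA synthetase (0.40 ± 0.06, adjusted p = 0.00035), and Tmem97, a sterol-responsive membrane protein (0.28 ± 0.06). Dhdds, Acacb and Acsl1 rose by 0.15 to 0.30, and Hsd17b12 fell by 0.18.

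A list of 12 partners of SREBP processing and its promoter cofactors had 0 calls with sORF6 and with sORF7 in edgeR, DESeq2 and limma. With sORF8, edgeR and DESeq2 each called 1 of the 12 lower, and limma on log2(FPKM + 1) called 0. At an unadjusted p under 0.05, edgeR put 2 of the 12 apart with sORF6 and 0 with sORF7. Of 9 genes of sterol uptake and storage, edgeR called 0 with any sORF, and DESeq2 called 1 higher with sORF8. At an unadjusted edgeR p under 0.05 there were 3 with sORF7 and 2 with sORF8. Of all 14870 genes tested, 2264 with sORF6, 2979 with sORF7 and 2468 with sORF8 had such an unadjusted p. At the shares of all genes given above, lists of 9 or 12 genes would hold few calls, so these low counts are near the background.

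In the authors' deposited table, members at a q-value under 0.05 numbered 25 lower and 0 higher for sORF7, 27 higher and 0 lower for sORF8, and 11 higher and 2 lower for sORF6. The share of all genes at that q-value was not computed, so these counts have no background beside them. The edgeR test called 0 for sORF6, and the reason for this difference was not tested.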

How the data were processed

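RNA of 18 libraries, 3 in each of 6 groups named by their titles, was sequenced on a BGIseq platform, per the labels. The authors deposited estimated counts and FPKM per gene and library; per the submitters' processing notes the tools include HISAT2 2.0.4, RSEM 1.2.12 and DESeq2 1.4.5 on Rnor_6.0, with no roles given. Use of strand in counting was not given in these sources. The authors' deposited log2 fold changes and q-values (headed degseq, per the file headers) are used only where that table is named. Where RSEM divides reads among similar transcripts, counts are fractional, as for 11 members.

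Estimated counts were rounded and fitted in edgeR 4.0.16 (R 4.3.3): filterByExpr by group, TMM, 1 mean per group over all 18 libraries, 12 residual degrees of freedom, a common biological coefficient of variation of 6.90%, two-sided quasi-likelihood tests, and Benjamini-Hochberg adjustment over 14870 genes. DESeq2 1.42.0 and limma 3.58.1 were alternatives. The code was tested on simulated data. Precision is set by the 3 libraries per group and by 15697177 to 17658137 counts per library.

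The members and gene lists were chosen with earlier results of these data known. Library values are given for the 14 members with the smallest adjusted p in any comparison. The labels do not say if libraries of the same replicate number were prepared together. The correlation of their deviations ran from -0.18 to 0.27, which does not settle it, and the main fit did not pair them. Promoters are from RefSeq (GRCr8); comparison of protein sequences was not done here. Some called genes of the wider lists are counted but not reported here by name.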

Additional observations from a re-analysis of the deposited data

Results flagged for a closer look

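The responses of the members differed between experiments by the test of the difference itself, for 14 members between sORF6 and sORF7, 13 between sORF6 and sORF8 and 24 between sORF7 and sORF8. Of all 14870 genes tested, 1659, 548 and 1148 differed in the same order, in either direction. The values below are log2 differences of the 14 members given by library, each from the edgeR quasi-likelihood fit and each past an adjusted p of 0.05. The 3 sets share libraries, so they are not independent of each other.

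For sORF6 minus sORF7, the log2 difference was 0.29 for Acat2, 0.39 for Hmgcs1, 0.32 for Idi1, 0.36 for Fdps, 0.34 for Fdft1 and 0.36 for Sqle. It was 0.25 for Cyp51, 0.70 for Hsd17b7, 0.25 for Sc5d, 0.34 for Srebf2, 0.53 for Scd and 0.40 for Scd2. Each was higher with sORF6. In limma on log2(FPKM + 1) the difference for Sc5d was 0.14 and did not pass (adjusted p = 0.231).

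For sORF6 minus sORF8, the differences were -0.39 for Acat2, -0.22 for Hmgcs1, -0.25 for Idi1, -0.40 for Fdps, -0.22 for Fdft1 and -0.19 for Cyp51. They were -0.27 for Sc5d, -0.29 for Insig1, -0.52 for Scd, -0.34 for Scd2 and -0.65 for Fads1. Sqle, Hsd17b7 and Srebf2 did not pass in this set. In limma on log2(FPKM + 1) the calls of Hmgcs1 (adjusted p = 0.0765), Cyp51 (0.0865) and Sc5d (0.0658) were lost. The difference for Hmgcs1 was lost without the first sORF6 library (adjusted p = 0.0508), the first sORF8 control library (0.0588), the first sORF8 library (0.0589) or the third sORF8 library (0.0526).

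For sORF7 minus sORF8, all 14 passed. The enzymes of the sterol branch gave -0.67 for Acat2, -0.61 for Hmgcs1, -0.58 for Idi1, -0.76 for Fdps, -0.55 for Fdft1 and -0.52 for Sqle. Later enzymes gave -0.45 for Cyp51, -0.93 for Hsd17b7 and -0.52 for Sc5d. The regulators gave -0.41 for Srebf2 and -0.44 for Insig1, and the desaturases -1.05 for Scd, -0.74 for Scd2 and -0.65 for Fads1.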

How the results depend on the processing

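No called direction reversed under any alternative run, while the sORF6 fatty acid median, 0.0024, which lies near 0, ran from -0.044 to 0.045 without single libraries. The count of members lower with sORF7, 21, became 13 in limma on log2(FPKM + 0.1), 15 on the 6 libraries of that experiment, and 15 to 19 when single libraries were left out. The count higher with sORF8, 18, was 16 to 19 without single libraries. The sterol branch median with sORF7, -0.23, was -0.23 with RLE scaling or DESeq2, -0.20 in limma on log2(FPKM + 1), -0.21 on log2(FPKM + 0.1), -0.23 without both libraries that stood apart (an alternative chosen after seeing the data), and -0.27 to -0.21 without single libraries. The fatty acid branch median with sORF8, 0.28, was 0.20 in limma on log2(FPKM + 1) and 0.19 to 0.30 without single libraries. With the replicate block, 21 members were lower with sORF7, 18 higher with sORF8, and 16, 12 and 25 differed between experiments; the block changed the call of Hmgcs1 between sORF6 and sORF8 (adjusted p = 0.0562) and no other call among the members called without it. Since the labels do not say if replicate numbers pair the libraries, this is a check only. Acly, as a difference between sORF6 and sORF7, was lost in 8 of 12 fits without single libraries. Over all genes, calls without single libraries ranged from 368 to 527 for sORF6 (572 with all), 681 to 954 for sORF7 (1156) and 264 to 382 for sORF8 (558). On each experiment's own 6 libraries they were 335, 689 and 865, and without both libraries that stood apart sORF8 had 988. The depth limits low members such as Elovl6, whose standard error was 0.37 to 0.39.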
